A study of Mus musculus with 8 samples.

Results

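The 10 genes described here move calcium into, out of and between the cytosol and its stores in pancreatic beta cells: the pumps Atp2a2, Atp2a3 and Atp2b1, the exchanger Slc8a1, the release channels Itpr1, Itpr2, Itpr3 and Ryr2, and the store-operated entry pair Stim1 and Orai1. They were chosen by symbol, as a functional group, and each matched 1 of the 55487 Ensembl gene identifiers in the deposited tables. Of these 10 genes, 9 reached 1 TPM (a level per transcript length, scaled to the total of its library) in at least 4 of 8 libraries and were tested. Ryr2 did not.

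The endoplasmic reticulum is the main calcium store of the beta cell. Pumps of the SERCA family fill it, and inositol trisphosphate (IP3) receptors and ryanodine receptors release from it. Plasma membrane pumps and the sodium-calcium exchanger carry calcium out of the cell. When the store runs low, the sensor STIM1 opens the plasma membrane channel ORAI1. In beta cells this traffic shapes the cytosolic calcium oscillations that drive insulin release after glucose closes the ATP-sensitive potassium channels.

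RNA came from beta cells that were flow-sorted from dispersed islets of mice of 2 genotypes, named Control and Chd4KO in the labels, with 4 libraries each. Chd4 is the helicase motor of the NuRD chromatin remodelling complex, and the series' title and design text describe its deletion in beta cells. Mice of both genotypes had been given tamoxifen. Strain, age, sex, the Chd4 alleles and the driver of the recombinase are not given in the sources used here. The titles end in a different animal number for each library, which was taken to mean separate mice. All Control numbers are below all Chd4KO numbers, so an order of collection cannot be told apart from genotype.

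Chd4 itself was at 15.98, 13.4, 11.1 and 12.3 TPM in Control and at 8.38, 6.18, 5.27 and 2.59 TPM in Chd4KO, so transcript remained in every library labelled Chd4KO. Its log2 difference of -1.18 ± 0.29 (SE) did not pass the test used for all other genes here (limma adjusted p = 0.0725). The groups did not overlap (exact two-sided permutation p = 0.0286, the smallest that 4 against 4 libraries can give). Reads in genes, recovered from TPM, numbered 16.4 M to 41.0 M in Control and 14.9 M to 20.2 M in Chd4KO. Defining beta cell markers were present throughout, with insulin genes at 32.4 to 62.0% of TPM. Of the 12 markers, Mafa and Slc2a2 fell, to 28.3 and 39.8% of their Control means (limma adjusted p = 0.0229 and 0.031). Over all tested genes, 1.44% were called lower. The groups were apart with Chd4KO lower for 5 of the 12, against 11.3% of all tested genes. The median log2 difference of the 12 was -0.62, against -0.25 over all tested genes. Chd4KO replicates 2 and 4 stood apart from the rest. The 20 acinar markers summed to 41809 TPM in Chd4KO replicate 2 and to 3.94 to 1667 TPM in the other libraries. In Chd4KO replicate 4, 12702 genes reached 1 TPM, against 14788 to 15923 elsewhere, and insulin took the highest share. The 9 endothelial markers summed to 5.60 to 6.10 TPM in Control and 6.41 to 9.78 TPM in Chd4KO. The 10 mesenchymal and glial and 5 erythroid markers summed to at most 2.13 and 18.8 TPM, with Sox10 at 0 in every library. The sums of the 7 alpha cell, the 6 delta, PP and epsilon cell and the 10 ductal markers were 836 to 4222, 2440 to 5520 and 802 to 3101 TPM, with ranges that overlapped between genotypes. Single markers did pass the test (limma adjusted p): Rbp4 of the delta, PP and epsilon list, Ambp of the ductal list and Cd68 and Fcer1g of the leukocyte list rose, and Cftr of the ductal list fell. The 12 leukocyte markers summed to 122 to 151 TPM in Control and 123 to 219 TPM in Chd4KO. The part of these other cells in the results was not tested. Since these are bulk samples, fewer cells of a type and less RNA per cell cannot be told apart.

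Beta cells of both genotypes held far more SERCA transcript than any other transcript of the group, while the IP3 receptor Itpr3 was lower in every Chd4KO library than in every Control library. None of the 9 tested genes passed the test across all genes (limma on log2(TPM + 1), Benjamini-Hochberg adjusted p under 0.05), a threshold that 2.97% of the 15189 tested genes passed (1.44% lower and 1.53% higher in Chd4KO). At an unadjusted p under 0.05 there were 2, Itpr1 and Itpr3, against 16.2% of all tested genes. Limma's voom on the recovered reads called none of the 9, and 576 of 15172 genes in all. Itpr3 was the 1 gene of the 9 whose groups did not overlap, with Chd4KO lower. Of all tested genes, 11.3% were apart in that direction, 3.54% in the other and 14.8% in either. The 1 of 9 genes apart thus lay near the share of all tested genes.

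In Control the order of mean level ran from Atp2a3 (683 ± 115 TPM) and Atp2a2 (554 ± 30.1 TPM) through Atp2b1 (24.2 ± 3.42 TPM), Stim1 (17.2 ± 0.779 TPM), Itpr3 (9.27 ± 0.879 TPM), Orai1 (6.68 ± 1.25 TPM) and Itpr1 (4.92 ± 1.01 TPM) to Itpr2 (1.97 ± 0.186 TPM) and Slc8a1 (1.31 ± 0.120 TPM; SD, n = 4 each), with Ryr2 last. The 4 values of neighbouring genes overlapped between Atp2a3 and Atp2a2 and between Orai1 and Itpr1, and were apart for all other neighbours down to Ryr2. In Chd4KO the order was the same except that Orai1 stood before Itpr3. There their 4 values were only just apart, with the lowest Orai1 value at 6.52 TPM and the highest Itpr3 value at 6.50 TPM. Neighbours overlapped in 6 pairs of the Chd4KO order, since values there spread more widely. Atp2a3 lay above 99.5% and Atp2a2 above 99.4% of all tested genes in Control mean TPM, Itpr3 above 49.3% and Slc8a1 above 6.37%. The plot of TPM by library shows the 9 tested genes.

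**Figure D1:**
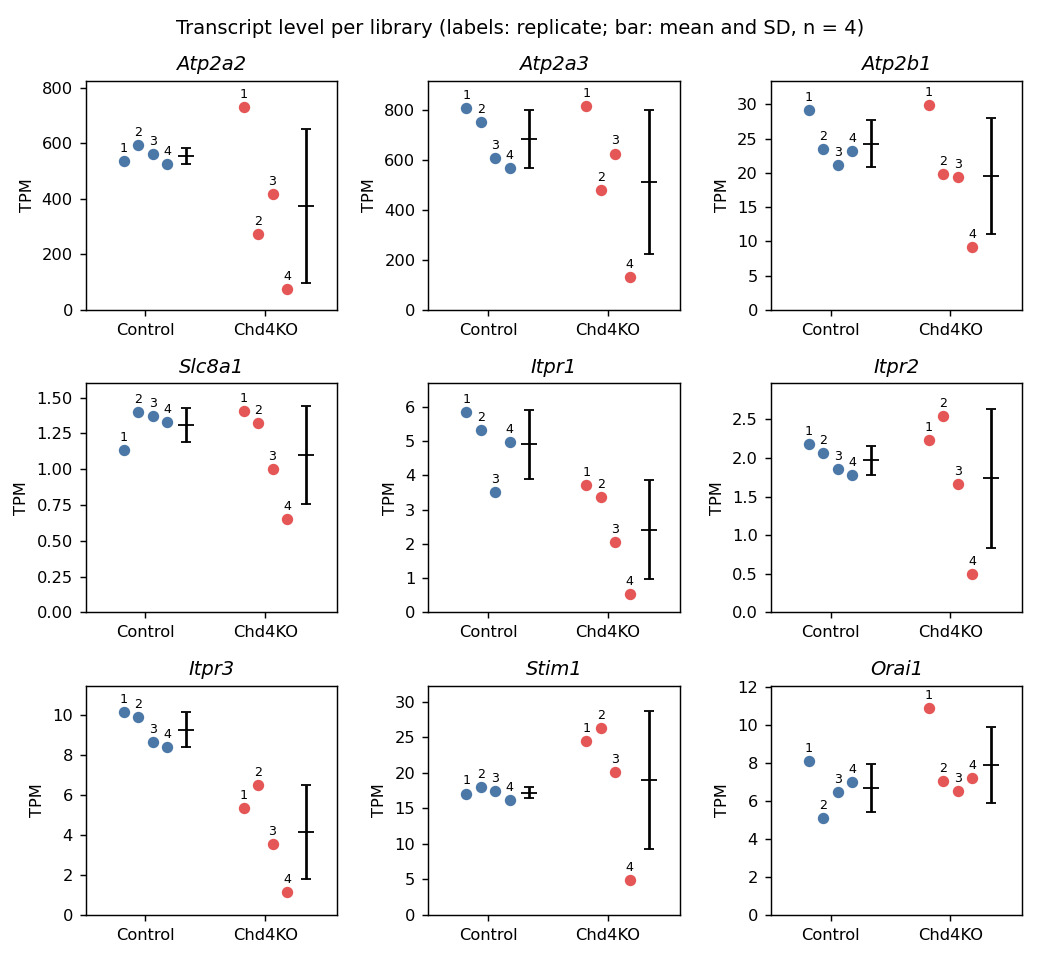
TPM of the 9 tested genes in each library, on axes that start at 0, with points numbered by replicate and black bars for mean and SD (n = 4). Itpr3 points of Chd4KO (1.14 to 6.50 TPM) lie below all Control points (8.39 to 10.1 TPM), and Chd4KO replicate 4 is the lowest Chd4KO point in every panel but Orai1.

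The SERCA pumps load calcium into the endoplasmic reticulum. Atp2a2 encodes SERCA2, found in nearly all cells, and Atp2a3 encodes SERCA3, found in fewer cell types and known from beta cells. Atp2a2 (chromosome 5, 122453513 to 122502225, minus strand, mm10) was at 537, 594, 560.0 and 526 TPM in Control replicates 1 to 4 and at 730.5, 273, 418 and 75.2 TPM in Chd4KO replicates 1 to 4. Chd4KO values lay on both sides of the narrow Control range, with replicate 1 above it and the other 3 below it. The log2 difference, Chd4KO minus Control, was -0.97 ± 0.58 (SE; 95% interval -2.29 to 0.35, limma adjusted p = 0.428).

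Atp2a3 (chromosome 11, 72961169 to 72993044, plus strand) was at 806, 751, 607 and 566 TPM in Control and at 813, 479, 625 and 134 TPM in Chd4KO. The groups overlapped, and replicate 4 was again far below the rest. Its log2 difference was -0.67 ± 0.50 (SE; 95% interval -1.80 to 0.46, limma adjusted p = 0.503). Without Chd4KO replicate 4 the differences were -0.34 ± 0.30 for Atp2a2 and -0.11 ± 0.22 for Atp2a3 (SE). The intervals leave room for a loss of more than a halving as well as for a gain, so similar levels are not shown either.

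The split between the 2 SERCA genes does not depend on the TPM total of a library. Atp2a3 made up 60.0, 55.9, 52.0 and 51.9% of summed SERCA TPM in Control and 52.7, 63.7, 59.9 and 64.0% in Chd4KO. Both genotypes thus had slightly more Atp2a3 than Atp2a2 transcript by TPM in each library, and the shares overlapped. So narrow a margin depends on the merged exon lengths behind TPM, 5281 bases in Atp2a3 and 6081 in Atp2a2. In Control replicate 3, for instance, Atp2a3 had 37583 reads and Atp2a2 had 39942. The sum of both was 1092 to 1345 TPM in Control and 1543, 753, 1043 and 209 TPM in Chd4KO replicates 1 to 4. Chd4KO replicate 2, with the acinar transcripts, and replicate 4, with few genes detected, had the lowest sums. The part of those differences between libraries in the SERCA values was not tested. Gm43361, on the other strand, shares 83 bases of exon with Atp2a2, 1.36% of its length, and the libraries do not mark strand.

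Calcium leaves the cell through the plasma membrane pump PMCA1, the product of Atp2b1, and through the sodium-calcium exchanger NCX1, the product of Slc8a1. Atp2b1 (chromosome 10, 98914406 to 99026143) was at 29.1, 23.5, 21.1 and 23.2 TPM in Control and at 29.9, 19.8, 19.4 and 9.13 TPM in Chd4KO. The groups overlapped through Chd4KO replicate 1 (log2 difference -0.39 ± 0.32, SE, limma adjusted p = 0.529). Without Chd4KO replicate 4 the difference was -0.09 ± 0.19 (SE). Slc8a1 (chromosome 17, 81373105 to 81738377) was the lowest of the tested genes, at 1.13, 1.40, 1.37 and 1.33 TPM in Control and 1.41, 1.32, 1.002 and 0.655 TPM in Chd4KO. Because its transcript is long, these levels still rest on 136 to 487 reads per library. Its log2 difference of -0.15 ± 0.18 (SE, limma adjusted p = 0.655) had a 95% interval of -0.56 to 0.26, and without Chd4KO replicate 4 it was -0.04 ± 0.13 (SE). An exon of AC122399.1 on the other strand shares 296 bases with Slc8a1 (1.57%).

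IP3 receptors open when receptors coupled to phospholipase C raise IP3, and release calcium from the endoplasmic reticulum. Itpr3, the most abundant of the 3 genes by TPM (chromosome 17, 27057304 to 27122223, plus strand, with 58 merged exons), was at 10.1, 9.89, 8.64 and 8.39 TPM in Control. It was at 5.35, 6.50, 3.53 and 1.14 TPM in Chd4KO, on 122 to 414 reads per library. All 4 Chd4KO values lay below all 4 Control values, with a mean of 44.6% of the Control mean. The log2 difference was -1.14 ± 0.36 (SE; 95% interval -1.96 to -0.33) and did not pass the test (limma adjusted p = 0.161). Over 19 alternative analyses its adjusted p ran from 0.0175 to 0.339 and was under the threshold in 3: with quantile normalisation, with a weight per library and without Chd4KO replicates 2 and 4.

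Itpr1 (chromosome 6, 108213096 to 108551109) was at 5.86, 5.33, 3.51 and 4.97 TPM in Control and at 3.72, 3.37, 2.05 and 0.544 TPM in Chd4KO. The groups overlapped through Control replicate 3, which lay below Chd4KO replicate 1. The mean in Chd4KO was 49.2% of that in Control, and the log2 difference was -0.90 ± 0.35 (SE, limma adjusted p = 0.251). Without Chd4KO replicate 4 it was -0.56 ± 0.21 for Itpr1 and -0.77 ± 0.19 for Itpr3 (SE). Without the acinar-rich replicate 2 it was -1.06 ± 0.37 for Itpr1 and -1.37 ± 0.35 for Itpr3 (SE), so both were as low or lower without that library. TPM divides by merged exon length, 18319 bases in Itpr1 and 9019 in Itpr3. The order of these genes and the size of the shares below depend on those lengths. Before that division Itpr1 had 760, 1809, 754 and 1453 reads in Control and Itpr3 had 648, 1653, 914 and 1208. In Chd4KO the reads were 494, 436, 271 and 118 for Itpr1 and 350, 414, 230 and 122 for Itpr3.

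Itpr2 (chromosome 6, 146108299 to 146502223, minus strand) was the least abundant of the 3, at 2.18, 2.07, 1.85 and 1.78 TPM in Control and 2.24, 2.54, 1.67 and 0.502 TPM in Chd4KO. Its groups overlapped, with 2 Chd4KO values above every Control value and 2 below (log2 difference -0.19 ± 0.27, SE, limma adjusted p = 0.713). As a share of summed Itpr TPM, a measure within each library, Itpr2 took 12.0, 12.0, 13.2 and 11.8% in Control and 19.8, 20.5, 22.98 and 22.9% in Chd4KO. The groups were apart for this share, at 12.2% ± 0.674 and 21.5% ± 1.66 (SD, n = 4 each), and leaving out any single library left a difference of 8.83 to 9.90 percentage points. Itpr3 took 55.8, 57.2, 61.7 and 55.4% in Control and 47.3, 52.4, 48.7 and 52.2% in Chd4KO, with no overlap either. The share of Itpr1 overlapped, at 30.2% ± 3.55 and 28.3% ± 3.38 (SD, n = 4 each). The 3 shares make up the whole in each library, so a lower share of Itpr3 must be made up by the others. Itpr2 itself had a mean TPM in Chd4KO of 88.1% of that in Control. These shares are a description, since the genes were chosen with results of these data known, and no test was made on them.

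**Figure D2:**
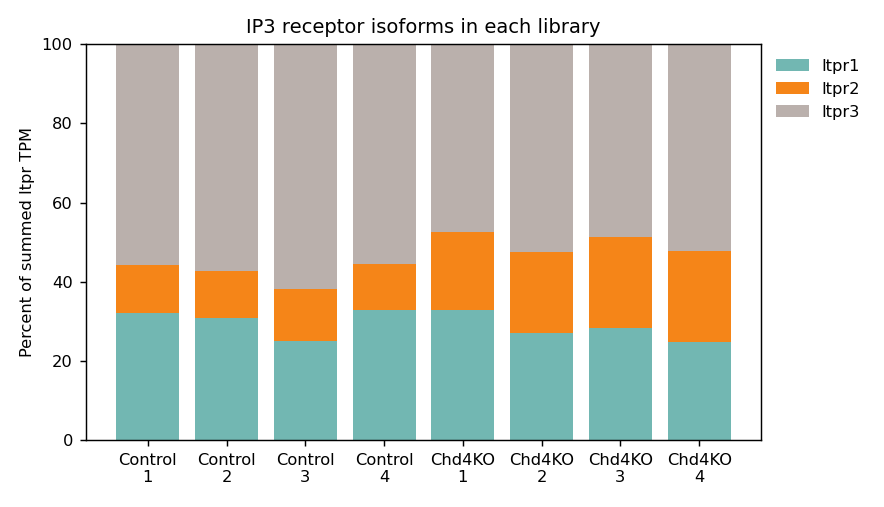
Shares of Itpr1, Itpr2 and Itpr3 in their summed TPM, as stacked bars in percent for each library. The Itpr2 segment is 11.8 to 13.2% in the 4 Control libraries and 19.8 to 22.98% in the 4 Chd4KO libraries.

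The promoter windows of Itpr3 and Itpr2, the pair whose shares of the family differed in opposite directions, are given for context. RefSeq's table (build GRCm38.p6) held windows for 8 of the 10 genes, and none for Itpr1 and Atp2a2. Each sequence is the 250 bases before the start, 5′ to 3′ on the gene's strand, with the GC box GGGCGG or its reverse complement in capitals.
Itpr3, chr17:27057054-27057303, plus strand: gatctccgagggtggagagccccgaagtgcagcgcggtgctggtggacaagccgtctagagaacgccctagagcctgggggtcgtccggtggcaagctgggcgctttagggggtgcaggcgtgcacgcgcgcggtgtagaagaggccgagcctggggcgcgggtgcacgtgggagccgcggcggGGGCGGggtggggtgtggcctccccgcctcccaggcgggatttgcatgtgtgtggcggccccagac
Itpr2, chr6:146502224-146502473, minus strand: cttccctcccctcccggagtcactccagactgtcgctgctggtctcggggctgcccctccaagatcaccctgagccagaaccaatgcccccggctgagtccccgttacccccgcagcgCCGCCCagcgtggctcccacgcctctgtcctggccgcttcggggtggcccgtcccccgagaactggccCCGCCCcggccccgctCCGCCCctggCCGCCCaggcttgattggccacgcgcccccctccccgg
Both windows are rich in CG dinucleotides, with 25 in Itpr3 and 22 in Itpr2 against a median of 6 over 32851 such windows. The GC box was found once in the Itpr3 window and at 4 places in the Itpr2 window, and 32.7% of all windows hold it on either strand. The CCAAT box (CCAAT) was found at 2 places in Itpr2 and nowhere in Itpr3 (33.8% of all windows), and the E box (CANNTG) at 2 places in Itpr3 and nowhere in Itpr2 (66.2% of all windows). The TATA box (TATAAA, in 12.4% of windows) and the Maf core (TGCTGA, in 16.1%) were in neither. These matches describe letters and were not tied to binding or to the RNA levels.

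Exons on the opposite strand overlap Itpr3 and Itpr1. Itpr3os shares 233 bases (2.58% of Itpr3 exon length) and was at 6.58, 9.31, 7.41 and 8.13 TPM in Control and at 3.997, 4.81, 1.74 and 0.106 TPM in Chd4KO. Gm44101 and Gm44040 share 181 and 108 bases with Itpr1 (0.988 and 0.590%). Reads in the shared bases of such pairs cannot be told apart in libraries without strand marks.

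Ryr2, the ryanodine receptor best known from heart muscle, was close to undetected. It had 0, 0, 2 and 0 reads in Control replicates 1 to 4 and 4, 0, 2 and 0 reads in Chd4KO. In the 5 libraries with 0 reads, the limit of 3 reads corresponds to 0.00562 to 0.0147 TPM, a bound that covers counting error only. With no filter on low values Ryr2 entered the fit and none of the 10 genes was called, but so few reads do not inform on a difference between genotypes. The other ryanodine receptors, Ryr1 and Ryr3, did not exceed 0.0254 and 0.343 TPM in any library.

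STIM1 senses calcium in the lumen of the endoplasmic reticulum. Stim1 (chromosome 7, 102267806 to 102437319) was at 17.1, 17.98, 17.5 and 16.1 TPM in Control and at 24.5, 26.2, 20.1 and 4.95 TPM in Chd4KO. Chd4KO replicates 1 to 3 lay above every Control value and replicate 4 lay far below. The log2 difference was -0.08 ± 0.45 (SE; 95% interval -1.09 to 0.93, limma adjusted p = 0.931). Without Chd4KO replicate 4 it turned to 0.43 ± 0.14 (SE), still outside the threshold (limma adjusted p = 0.123).

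ORAI1 forms the pore that STIM1 opens. Orai1 (chromosome 5, 123015074 to 123030456) was at 8.12, 5.10, 6.46 and 7.01 TPM in Control and at 10.9, 7.03, 6.52 and 7.21 TPM in Chd4KO. Its values overlapped, with Chd4KO replicate 1 the highest of the 8. It was the 1 tested gene of the 9 with a positive log2 difference, at 0.21 ± 0.21 (SE; 95% interval -0.28 to 0.69, limma adjusted p = 0.615). Orai1 was also the 1 gene that was not lowest in Chd4KO replicate 4 among the Chd4KO libraries. Its levels rest on 108 to 257 reads per library, and without Chd4KO replicate 1 the difference was 0.06 ± 0.20 (SE). Gm2479 on the other strand shares 7 bases of its exons.

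Over the 9 tested genes the median log2 difference was -0.39, and over all 15189 tested genes it was -0.25. Of the 9, 8 had a difference below 0, as did 74.8% of all tested genes. Relative to the median of all tested genes, Itpr3 was at -0.89, Atp2a2 at -0.72, Itpr1 at -0.64, Atp2a3 at -0.41 and Atp2b1 at -0.14. On that scale Itpr2, Slc8a1, Stim1 and Orai1 lay above the median, at 0.06, 0.10, 0.17 and 0.46. Leaving out Chd4KO replicate 4 brought the median of all tested genes to -0.05, and median-of-ratios scaling brought it to -0.02. Under that scaling Stim1 was at 0.18 instead of below 0.

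**Figure D3:**
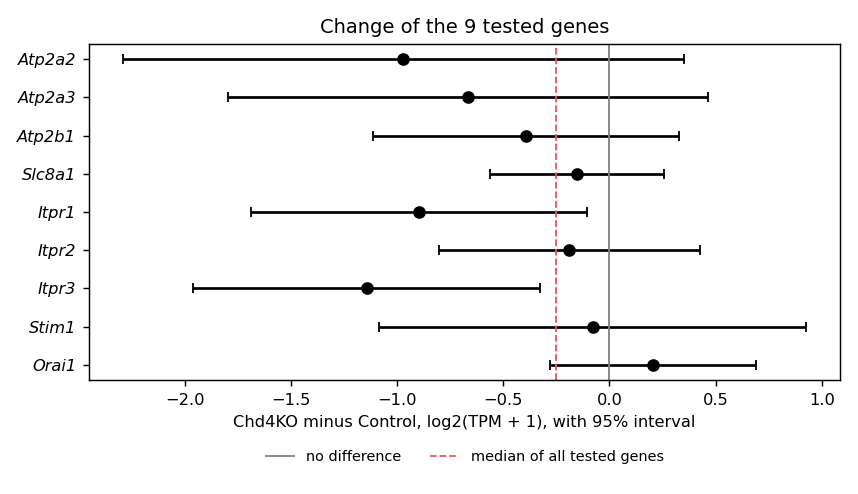
Log2 difference in TPM + 1, Chd4KO minus Control, of the 9 tested genes with the 95% interval from limma. The grey line marks no difference and the dashed line the median of all tested genes (-0.25). The intervals of Itpr1 and Itpr3 lie below 0, before adjustment for the number of genes.

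Most of these genes have long transcripts, with 9019 to 28790 bases of merged exons in Itpr1, Itpr2, Itpr3, Atp2b1, Stim1, Slc8a1 and Ryr2. In Chd4KO replicate 4 long transcripts were lower across the transcriptome. The median log2 difference of that library from the Control mean was -0.50 for 4582 genes under 2000 bases and -1.23 for 2029 genes over 8000 bases. In Chd4KO replicates 1 to 3 the same medians for genes over 8000 bases were 0.09, -0.04 and -0.32. Per the labels, only RNA above a set integrity number went into libraries, but no integrity value per library is given here. The cause of the slope with length in Chd4KO replicate 4 was not tested.

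**Figure D4:**
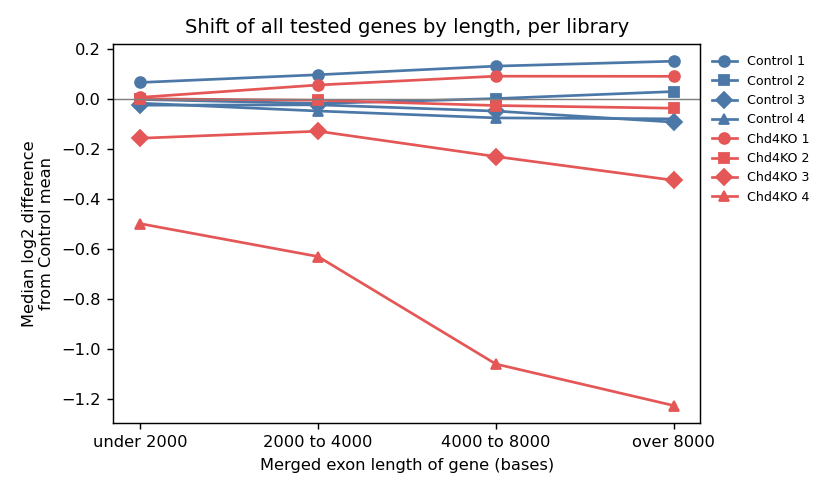
Median log2 difference from the Control mean of all tested genes in 4 bins of merged exon length (bases), with 1 line per library, Control in blue and Chd4KO in red. Chd4KO replicate 4 goes from -0.50 in the shortest bin to -1.23 in the longest, and the other 7 libraries stay between -0.32 and 0.15.

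Set against the median of tested genes in the same length bin, Itpr3 lay at -0.78, -0.41, -0.85 and -1.03 (log2) in Chd4KO replicates 1 to 4. Itpr1 lay at -0.40, -0.38, -0.62 and -0.70. Both were below genes of like length in each of the 4 Chd4KO libraries. Itpr2 lay slightly above the median of the same bin in each, at 0.03, 0.29, 0.17 and 0.24. Stim1 lay above in replicates 1 to 3, at 0.40, 0.62 and 0.54, and below in replicate 4, at -0.38. Atp2a2 lay at 0.31, -0.99, -0.18 and -1.80 and Atp2a3 at 0.17, -0.47, 0.12 and -1.27, so neither pump kept a direction across libraries.

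**Figure D5:**
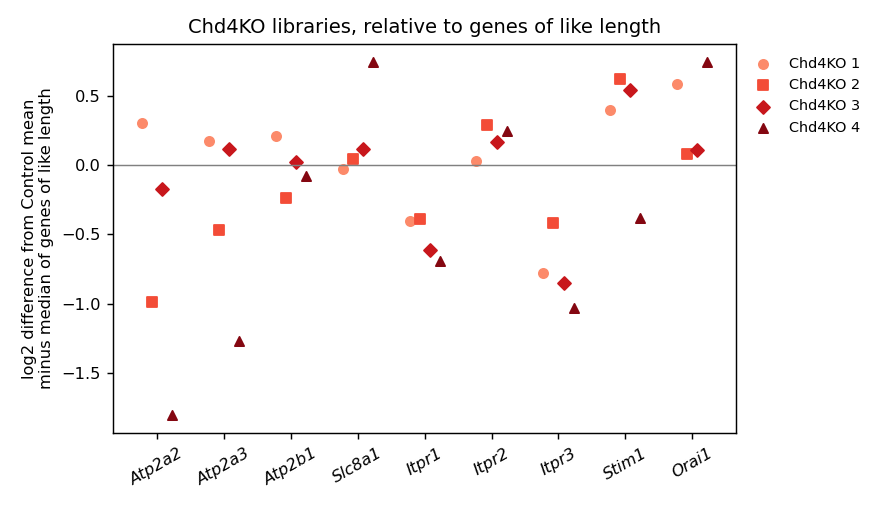
Log2 difference of each Chd4KO library from the Control mean, minus the median of tested genes in the same length bin, for the 9 tested genes, with 1 symbol per library. All 4 symbols lie below 0 for Itpr1 and Itpr3 and above 0 for Itpr2 and Orai1.

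Other genes of calcium handling were read from 7 lists with 167 genes, of which 121 were tested. The lists held none of the 10 genes. Of the 121, 1 rose and 2 fell, no larger a share than the 2.97% called over all tested genes (1.53% higher and 1.44% lower). Voom on recovered reads called 4 of the 121, and 576 of 15172 genes in all. The median log2 difference was -0.23 against -0.25 for all tested genes. Necab2, a calcium-binding EF-hand protein known from neurons, rose. It was at 7.41, 13.2, 15.8 and 7.95 TPM in Control and at 79.8, 58.8, 95.2 and 102 TPM in Chd4KO, with the groups far apart (log2 difference 2.85 ± 0.29, SE, limma adjusted p = 0.00125). Its adjusted p stayed under the threshold in all 19 alternatives.

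Camk1, a kinase that calmodulin activates, fell. It was at 16.3, 18.4, 18.3 and 17.1 TPM in Control and at 7.30, 7.27, 6.93 and 9.75 TPM in Chd4KO (log2 difference -1.08 ± 0.17, SE, limma adjusted p = 0.0123). That call was kept in 11 of 19 alternatives. It was lost under each of the 3 other scalings of TPM (adjusted p = 0.0742 to 0.192), with a replicate block (0.0607), and without Control replicate 2, 3 or 4 or Chd4KO replicate 3 (0.0526 to 0.0639). Camk1 shares 232 bases of exon with Ogg1 on the other strand. The third was Sil1, a cofactor of the chaperone BiP that fell (log2 difference -1.33 ± 0.16, SE, limma adjusted p = 0.0033). It was read from the list of calcium-binding proteins of the endoplasmic reticulum, with 17 tested genes, but is not taken here to bind calcium itself. Sil1 was at 104, 86.2, 88.6 and 85.4 TPM in Control and at 38.3, 37.0, 34.8 and 31.7 TPM in Chd4KO. Its call was kept in all 19 alternatives. The antisense genes AC147989.1 and AC147989.3 share 108 and 88 bases of exon with Sil1 (3.14 and 2.56%). The chaperones Hspa5 and Hsp90b1, which bind calcium in the endoplasmic reticulum, were at 2255 ± 527 and 1078 ± 124 TPM in Control and 2032 ± 1136 TPM and 997 ± 515 TPM in the Chd4KO libraries (SD, n = 4 each).

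No tested gene of the other 5 lists passed the test (limma adjusted p). Unadjusted p under 0.05 was met by 0 of 9 other pumps and exchangers, 4 of 24 release channel regulators, 2 of 12 store-operated entry partners, 3 of 19 genes of IP3 production and breakdown and 1 of 19 genes of mitochondrial calcium uptake. Over all tested genes that share was 16.2%, and no list lay far above it. The median log2 differences of the 5 lists were -0.31, -0.24, -0.17, -0.27 and -0.19 in that order, against -0.25 for all tested genes. Fkbp1b, which binds ryanodine receptors, was at 325, 351, 301 and 313 TPM in Control and at 136, 191, 196 and 211 TPM in Chd4KO. Its groups were apart, as for 11.3% of all tested genes in that direction, but it did not pass (log2 difference -0.82 ± 0.19, SE, limma adjusted p = 0.057). Among pumps and exchangers, the Golgi pump Atp2c1 was at 66.3 ± 16.2 and 41.3 ± 19.4 TPM and the chaperone subunit Bsg at 486 ± 17.1 and 553 ± 96.0 TPM (SD, n = 4 each).

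The paralogs of Stim1 and Orai1 fill in the store-operated route. They were singled out after their values were seen. Orai3 was the most abundant Orai gene, at 44.1 ± 3.10 TPM in the Control libraries against 52.8 ± 9.54 TPM (SD, n = 4 each, limma adjusted p = 0.527). Orai2 was at 17.005, 11.2, 9.09 and 9.53 TPM in Control and at 6.20, 5.31, 6.22 and 0.361 TPM in Chd4KO. Its groups were apart, as for 11.3% of all tested genes in that direction (log2 difference -1.43 ± 0.52, SE, limma adjusted p = 0.224). Stim2 was at 10.97 ± 0.781 and 13.3 ± 7.43 TPM (SD, n = 4 each, limma adjusted p = 0.891). Saraf, which switches store-operated entry off, and the membrane-binding annexin Anxa6 were the most abundant genes of their list, at 677 ± 47.4 and 124 ± 5.36 TPM in Control libraries against 691 ± 201 and 123 ± 39.6 TPM (SD, n = 4 each).

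For the remaining lists, the genes with the highest mean TPM over all 8 libraries are given by their Control mean, then their Chd4KO mean. Scgn, a calcium-binding protein of endocrine cells, was at 648 ± 113 and 455 ± 76.4 TPM, and Calm2, a calmodulin gene, at 408 ± 34.7 and 398 ± 11.7 TPM (SD, n = 4 each). The G protein subunit gene Gna11, upstream of phospholipase C, was at 73.7 ± 6.30 and 73.7 ± 13.4 TPM, and the IP3 phosphatase gene Inpp5a at 21.01 ± 1.02 and 21.8 ± 8.20 TPM. In mitochondria, Smdt1, a subunit of the calcium uniporter, was at 107 ± 7.62 and 103 ± 18.4 TPM, and Ghitm at 180 ± 22.5 and 152 ± 58.5 TPM. Grina, among the release channel regulators, was at 133 ± 12.8 and 179 ± 40.7 TPM. None of these passed the test.

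The tested genes whose values were most like those of Itpr3 were found by the Euclidean distance over the 8 libraries. It was taken between log2(TPM + 1) values, each minus its Control mean. The search covered 8521 genes with a mean of at least 5 TPM. Genes without a symbol or with a symbol of a predicted gene (Gm and digits, or Rik) were left out. Top2b, a DNA topoisomerase, was nearest, at a distance of 0.147. It was at 8.44, 8.38, 6.70 and 6.98 TPM in Control and at 4.31, 5.83, 2.85 and 0.803 TPM in Chd4KO, with the same order of Chd4KO libraries as Itpr3. Adam22, Selenon, Slc35g1 and Thnsl1 followed at 0.298, 0.324, 0.363 and 0.376. Their means in Chd4KO were 47.1, 49.3, 48.7 and 49.2% of those in Control, and none of the 5 passed the test (limma adjusted p = 0.121 to 0.187). The like library order, means and test results largely follow from the choice by distance to Itpr3.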

How the data were processed

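RNA sequencing of 8 libraries of sorted mouse beta cells was compared by genotype, 4 Chd4KO against 4 Control. The authors deposited 1 table of TPM per library. The submitters' processing notes name HISAT2, HTSeq, DESeq2, Trimmomatic and FastQC, and the build mm10; their roles and the annotation release are not given in the sources used here. Per the labels' protocols, cDNA came from a SMART-Seq low-input kit and libraries from Nextera XT, which do not mark strand. Symbols, positions and merged exon lengths came from GENCODE M21 (same build; 99.5% of 55487 identifiers matched). TPM times merged exon length was a whole multiple of 1 step per library for 98.5 to 98.7% of values above 0 (tolerance 0.05 of a read); reads recovered so were used for depth and 1 alternative.

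Genes with at least 1 TPM in at least 4 libraries entered a linear model of log2(TPM + 1) on genotype alone (limma 3.58.1, R 4.3.3), adjusted over all 15189 genes; differences on that scale understate those of low genes. The fit was tested on simulated data. Python 3.11.15 and matplotlib 3.10.9 were also used. That replicates are separate mice rests on the animal numbers in the titles; otherwise p-values measure only the spread between these samples. The 19 alternatives covered pseudocount, filter, scaling, variance model, weights, a replicate block, voom on recovered reads and left-out libraries, for which the filter asked for as many libraries as the smaller group held.

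The 10 genes, the lists and the alternatives were chosen with earlier results of these data known. Named were the 10 genes, Chd4, the called cell type markers and the 5 genes nearest Itpr3. So were every called gene of the 7 lists and the 2 most abundant tested genes of each. Others are said to be chosen after their values were seen.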

Additional observations from a re-analysis of the deposited data

Results flagged for a closer look

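In groups of 4 libraries, a value was looked at again where its gap to the nearest other value was above Dixon's critical share of the whole range. Of 30 such groups (the 10 genes, Chd4 and 4 family shares in each genotype), 3 met this. Chance gives about 5% for independent, normally distributed values. The family shares are tied to the TPM of the same genes, and Ryr2 is mostly at 0, so the count cannot be judged against that rate. Orai1 in Chd4KO replicate 1, at 10.9 TPM, stood above the next value of 7.21 TPM. The Itpr2 share of summed Itpr TPM in Control replicate 3, at 13.2%, stood above the next value of 12.0%. Ryr2 in Control replicate 3 was at 0.00592 TPM, which is 2 reads, with the other 3 Control libraries at 0. With 3 values at 0, any value above 0 meets the rule.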

How the results depend on the processing

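None of the 9 tested genes was called in 16 of 19 alternatives, the 8 that left out a library included (lowest and highest count 0). The 1 call in quantile normalisation, array weights and the fit without Chd4KO replicates 2 and 4 was Itpr3. Genes of the 7 lists called numbered 3, and 5 without a filter, 6 with quantile normalisation, 10 with array weights and 9 without Chd4KO replicates 2 and 4. Leaving out 1 library gave 2 to 7, with 7 without Chd4KO replicate 4. All genes called numbered 451, with 497 of 31466 without a filter and 576 of 15172 with voom. The count was 220 with a minimum of 5 TPM, 724 with median-of-ratios scaling, 681 with scaling without hormones and mitochondrial genes, 755 with quantile normalisation (466 higher and 289 lower, against 233 and 218), 1364 with array weights, and 833 without Chd4KO replicates 2 and 4. Leaving out 1 library gave 171 to 866: 250, 173, 218 and 171 without Control replicates 1 to 4, 233 without Chd4KO replicate 3 and 866 without Chd4KO replicate 4.

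Itpr3, Itpr1, Atp2a2 and Orai1 kept the sign of their difference in every alternative that tested them. Stim1 turned to 0.18, 0.055 and 0.19 under median-of-ratios, hormone-free and quantile scaling, to 0.30 with array weights, to 0.0025 with voom, to 0.35 without Chd4KO replicates 2 and 4, and ran from -0.30 to 0.43 when 1 library was left out. Itpr2 ran from -0.34 to 0.076 when 1 library was left out. Atp2a3 and Atp2b1 turned to 0.078 and 0.0012 without Chd4KO replicates 2 and 4, and Slc8a1 to 0.029 with quantile normalisation. The Chd4 difference ran from -8.53 to -6.60 TPM when 1 library was left out.

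With the replicate number as a block, 274 genes were called, 2 of them in the lists and 0 among the 9. Same-numbered libraries correlated in their deviations at -0.02, 0.43, 0.08 and 0.04, and 1 of 4 Control libraries correlated best with its own number, so the numbers were not taken as pairs. Depth limits Ryr2, which had 0 to 4 reads.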

Other observations

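Genes that make or break down IP3 were looked at by name after their values were seen. Of 19 tested genes of that list, 4 had all Chd4KO values below all Control values and 1 had them above, against 11.3% and 3.54% of all tested genes. The 4 were the phospholipase genes Plcg1, Plcb4 and Plch1 and the inositol monophosphatase gene Impa1, while the groups overlapped for Plcb1, Plcb3, Plcg2 and Plcd4. Control and Chd4KO means were 23.8 ± 3.03 and 13.5 ± 7.88 TPM for Plcg1, 8.69 ± 1.48 and 4.67 ± 2.30 TPM for Plcb4, 2.89 ± 0.417 and 1.34 ± 0.519 TPM for Plch1, and 21.6 ± 1.52 and 15.5 ± 5.20 TPM for Impa1 (SD, n = 4 each). Inpp4b, a phosphatase of inositol phospholipids, was the 1 gene with higher Chd4KO values, at 1.70 ± 0.980 and 4.34 ± 1.07 TPM. None of the 5 passed the test (limma adjusted p = 0.366, 0.252, 0.116, 0.374 and 0.136). Tmbim6, a membrane protein of the endoplasmic reticulum, was at 82.0, 74.3, 71.7 and 70.8 TPM in Control and at 105, 88.2, 93.1 and 101 TPM in Chd4KO, also without overlap and outside the threshold (limma adjusted p = 0.295).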
